A study of Mus musculus with 12 samples.

Results

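The interleukin 1 family was followed in mouse lung through 10 genes, named by symbol: the ligands Il1a, Il1b, Il18 and Il33, the receptors Il1r1, Il1r2, Il1rl1 and Il1rap, the receptor antagonist Il1rn and the binding protein Il18bp. All 10 symbols were found once each among 38349 genes in the deposited table. All 10 passed the filter on low counts. Bulk RNA sequencing covered 12 lung libraries, 3 in each of 4 groups. The tpMSC and MSC groups were injured lungs treated with cells of those names, the ALI group was the acute lung injury model without treatment, made with hypoxia and LPS (lipopolysaccharide, a bacterial cell wall component), and the Control group was normal lung. All animals were wild type, and the strain, age, sex, dose and time of sampling are not given in the labels. MSC is the usual abbreviation for mesenchymal stromal cells, and the labels spell out neither it nor tpMSC, nor name the species or source of the cells given. Whether the 3 libraries of a group came from separate animals is not stated. A p-value here therefore reflects how far these libraries spread, which may be technical.

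Interleukin 1 signalling begins when IL-1α or IL-1β binds the receptor encoded by Il1r1, which then recruits the accessory chain encoded by Il1rap and passes the signal to MyD88 and the IRAK kinases. IL-1 receptor antagonist, from Il1rn, occupies the same receptor without signalling, and the receptor from Il1r2 binds IL-1 but lacks a signalling domain, so both act as brakes. IL-18 is matured by caspase-1 and is held in check by the soluble IL-18 binding protein. IL-33, a nuclear cytokine released from damaged cells, signals through ST2, the product of Il1rl1, together with the same accessory chain. In the mouse lung IL-33 is known mainly from alveolar type 2 cells, and IL-1β and the decoy receptor from neutrophils and other myeloid cells.

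Libraries held 53083002 to 70209229 counts. Lung epithelial markers were present in every library, with Sftpc, a surfactant protein gene, at 3412 FPKM or more and Scgb1a1, a club cell gene, at 7170 FPKM or more. FPKM is a fragment count divided by gene length and library size, so levels of different genes can be set side by side. The annotation behind those lengths is not given. MSC replicate 3 stood apart from the other MSC libraries, at 51.8 on the second principal component against -16.1 and -29.4. On the first component tpMSC replicate 3 was at 1.95, against -19.8 and -23.4 for the other tpMSC libraries. In these bulk samples fewer cells of a type and less RNA per cell cannot be told apart.

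The genes sit in several clusters of the mouse genome (GRCm38, GENCODE M21). Il1a (ENSMUSG00000027399, chromosome 2, 129299610 to 129309972) and Il1b (ENSMUSG00000027398, chromosome 2, 129364570 to 129371139) are neighbours on the minus strand. Il1rn (ENSMUSG00000026981, chromosome 2, 24336853 to 24351494) lies far from them, beside the interleukin 36 genes. On chromosome 1, Il1r2 (ENSMUSG00000026073, 40074079 to 40125231), Il1r1 (ENSMUSG00000026072, 40225080 to 40317257) and Il1rl1 (ENSMUSG00000026069, 40429570 to 40465415) stand in a row with Il1rl2, Il18r1 and Il18rap. Il18 (ENSMUSG00000039217) lies on chromosome 9, 50554827 to 50581840, and Il18bp (ENSMUSG00000070427) on chromosome 7, 102014885 to 102018690. Il33 (ENSMUSG00000024810) lies on chromosome 19, 29925114 to 29960718, and Il1rap (ENSMUSG00000022514) on chromosome 16, 26581704 to 26730117.

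Promoter windows are shown for Il1b, Il1rn and Il1r2, the members with the highest folds in injured lung, and for Il18, which fell. Each window runs from 250 bases before to 50 after a RefSeq start (GRCm38.p6) and is written along the gene's own strand. They are chr2:129371090-129371389 on the minus strand for Il1b and, on the plus strand, chr2:24345121-24345420 for Il1rn, chr1:40085843-40086142 for Il1r2 and chr9:50554450-50554749 for Il18. Capitals mark a match to an NF-kB motif (GGG, any 2 bases, then TTTCC or TTCCC), C/EBP (TTGCNNAA), AP-1 (TGANTCA) or the interferon-gamma site GAS (TTCNNNGAA), searched on both strands, with overlapping matches merged.
Il1b: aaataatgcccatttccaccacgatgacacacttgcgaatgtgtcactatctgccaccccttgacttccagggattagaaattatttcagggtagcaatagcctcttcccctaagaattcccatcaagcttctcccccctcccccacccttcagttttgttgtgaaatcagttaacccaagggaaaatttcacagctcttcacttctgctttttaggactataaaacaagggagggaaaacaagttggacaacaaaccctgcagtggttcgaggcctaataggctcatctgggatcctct
Il1rn: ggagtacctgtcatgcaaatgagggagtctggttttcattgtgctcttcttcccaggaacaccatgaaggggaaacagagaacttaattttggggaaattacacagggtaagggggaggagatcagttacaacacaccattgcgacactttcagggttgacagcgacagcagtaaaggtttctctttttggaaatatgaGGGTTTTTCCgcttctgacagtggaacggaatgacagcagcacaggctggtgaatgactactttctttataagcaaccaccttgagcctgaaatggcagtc
Il1r2: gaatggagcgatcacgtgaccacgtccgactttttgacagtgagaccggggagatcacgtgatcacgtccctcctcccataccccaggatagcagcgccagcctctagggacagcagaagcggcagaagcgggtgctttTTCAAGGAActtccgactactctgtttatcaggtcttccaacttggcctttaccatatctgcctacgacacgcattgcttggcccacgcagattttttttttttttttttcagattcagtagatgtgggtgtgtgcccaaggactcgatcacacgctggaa
Il18: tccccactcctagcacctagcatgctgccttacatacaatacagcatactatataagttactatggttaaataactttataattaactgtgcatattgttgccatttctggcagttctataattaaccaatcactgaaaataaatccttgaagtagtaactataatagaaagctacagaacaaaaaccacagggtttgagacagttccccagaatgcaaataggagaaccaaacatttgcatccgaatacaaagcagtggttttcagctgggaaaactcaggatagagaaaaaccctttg
The capitals in the Il1rn window are an NF-kB match and those in the Il1r2 window a GAS match, and the Il1b and Il18 windows hold no match. Il1rn is the 1 member of 10 with an NF-kB match, in 2 of its 3 windows, which overlap and hold the same site, where 3.24% of 32851 promoter windows hold it. C/EBP was matched for 4 members (Il1r1, Il18bp, Il33 and Il1rl1; 10.8% of all windows), AP-1 for 2 (Il1a and Il1rn; 7.81%) and GAS for 1 (Il1r2; 8.3%). These shares count windows, and some members have more than 1. By window the matches were in 2 of 15 member windows for NF-kB, 4 of 15 for C/EBP, 2 of 15 for AP-1 and 1 of 15 for GAS. A match is a string of letters in this window and not a bound site.

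Most of the family was higher in injured lung, and Il18 was lower. In ALI against Control, 8 members were higher and 1, Il18, was lower at an adjusted p under 0.05, and Il1rl1 did not pass (edgeR quasi-likelihood test, Benjamini-Hochberg adjustment over 22915 genes). Of all genes tested, 39.8% were called, 20.2% up and 19.6% down. The FPKM values of the ALI and Control libraries did not overlap for 10 of 10 members, where this held for 55.6% of all genes. The median log2 fold change was 2.02 over the members and -0.02 over all genes.

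Il1b, the secreted cytokine made by activated myeloid cells, had the highest level of the 10 members in every ALI library. Its level was 39.3, 38.5 and 89.3 FPKM in tpMSC lungs, 67.4, 83.7 and 65.0 FPKM in MSC lungs, 319.2, 346.3 and 407.9 FPKM in ALI lungs, and 12.0, 10.2 and 7.00 FPKM in Control lungs. Every ALI library was above every treated library, and every treated library was above every Control library, while tpMSC and MSC libraries overlapped. Il1b was 38.3-fold higher in ALI than in Control (log2 fold change 5.26 ± 0.36 SE, adjusted p = 1.67e-06). It was lower than in ALI by 2.70 ± 0.32 (SE) on the log2 scale in tpMSC (fold 0.153, adjusted p = 0.000193) and by 2.36 ± 0.31 in MSC (fold 0.195, adjusted p = 0.00117). Both treated groups stayed above Control, with folds of 5.88 in tpMSC (adjusted p = 0.000819) and 7.45 in MSC (adjusted p = 0.000293).

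Il1a, the companion agonist that is active in its precursor form, rose less and was uneven after treatment. It was at 12.5, 8.89 and 25.4 FPKM in tpMSC lungs, 26.4, 33.9 and 6.96 FPKM in MSC lungs, 22.6, 32.4 and 29.6 FPKM in ALI lungs, and 8.84, 7.86 and 9.61 FPKM in Control lungs. ALI and Control did not overlap, whereas MSC replicate 3 lay below all Control libraries and the other MSC libraries lay within or above the ALI range. Il1a was 3.36-fold higher in ALI than in Control (log2 fold change 1.75 ± 0.49 SE, adjusted p = 0.0137), a call lost without Control replicate 2 (adjusted p = 0.0507, over a range of 2.27e-05 to 0.0507 in the alternatives). Neither treated group differed from ALI by the test, with log2 fold changes of -0.88 ± 0.48 in tpMSC (adjusted p = 0.216) and -0.38 ± 0.47 in MSC (adjusted p = 0.685). Without MSC replicate 3 the MSC value was 0.04. With MSC replicate 3 and tpMSC replicate 3 both left out, a pair chosen after seeing the data and partly from the members' values, tpMSC was lower than ALI (log2 fold change -1.43, adjusted p = 0.000529, in a range of 0.000529 to 0.497 over the alternatives). Against Control, tpMSC was 1.83-fold higher without passing (adjusted p = 0.253), and MSC was 2.57-fold higher without passing (adjusted p = 0.0719) and passed without MSC replicate 3 (adjusted p = 0.00697) or without tpMSC replicate 3 (adjusted p = 0.0442), in a range of 0.000219 to 0.256 over the alternatives.

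The brakes on interleukin 1 rose beside the agonists. Il1rn stood at 7.83, 5.50 and 17.6 FPKM in tpMSC lungs, 15.6, 25.7 and 7.18 FPKM in MSC lungs, 48.7, 73.1 and 57.2 FPKM in ALI lungs, and 2.06, 1.71 and 2.26 FPKM in Control lungs. The treated libraries lay between ALI and Control without overlap with either, and the tpMSC and MSC libraries overlapped each other. Il1rn was 30.9-fold higher in ALI than in Control (log2 fold change 4.95 ± 0.53 SE, adjusted p = 2.59e-05). It was lower in tpMSC than in ALI (log2 fold change -2.55 ± 0.47, adjusted p = 0.00257) and in MSC than in ALI (-1.94 ± 0.46, adjusted p = 0.0215), and higher than in Control in tpMSC (fold 5.27, adjusted p = 0.00691) and MSC (fold 8.08, adjusted p = 0.00178). Without tpMSC replicate 3 the log2 fold change in tpMSC was -3.19 from ALI and 1.76 from Control (fold 3.39), both still called. The call of MSC against ALI was lost without ALI replicate 2 (adjusted p = 0.062), without ALI replicate 3 (0.0545) or without MSC replicate 1 (0.0837), in a range of 0.00328 to 0.0837 over the alternatives. Secreted and intracellular forms of the antagonist start at different promoters, and these gene counts do not separate them.

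Il1r2, the decoy receptor, had the highest fold of the family. It stood at 5.23, 3.12 and 6.97 FPKM in tpMSC lungs, 5.56, 9.90 and 5.32 FPKM in MSC lungs, 28.6, 29.9 and 32.0 FPKM in ALI lungs, and 0.42, 0.49 and 0.42 FPKM in Control lungs. The ALI libraries were close together and above all others, and the Control libraries were below all others. The fold over Control was 70.1 in ALI (log2 fold change 6.13 ± 0.35 SE, adjusted p = 6.55e-07), 11.7 in tpMSC (adjusted p = 0.000151) and 15.6 in MSC (adjusted p = 3.6e-05). Against ALI it was lower by 2.59 ± 0.28 on the log2 scale in tpMSC (adjusted p = 0.000136) and by 2.17 ± 0.28 in MSC (adjusted p = 0.00104).

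**Figure D1:**
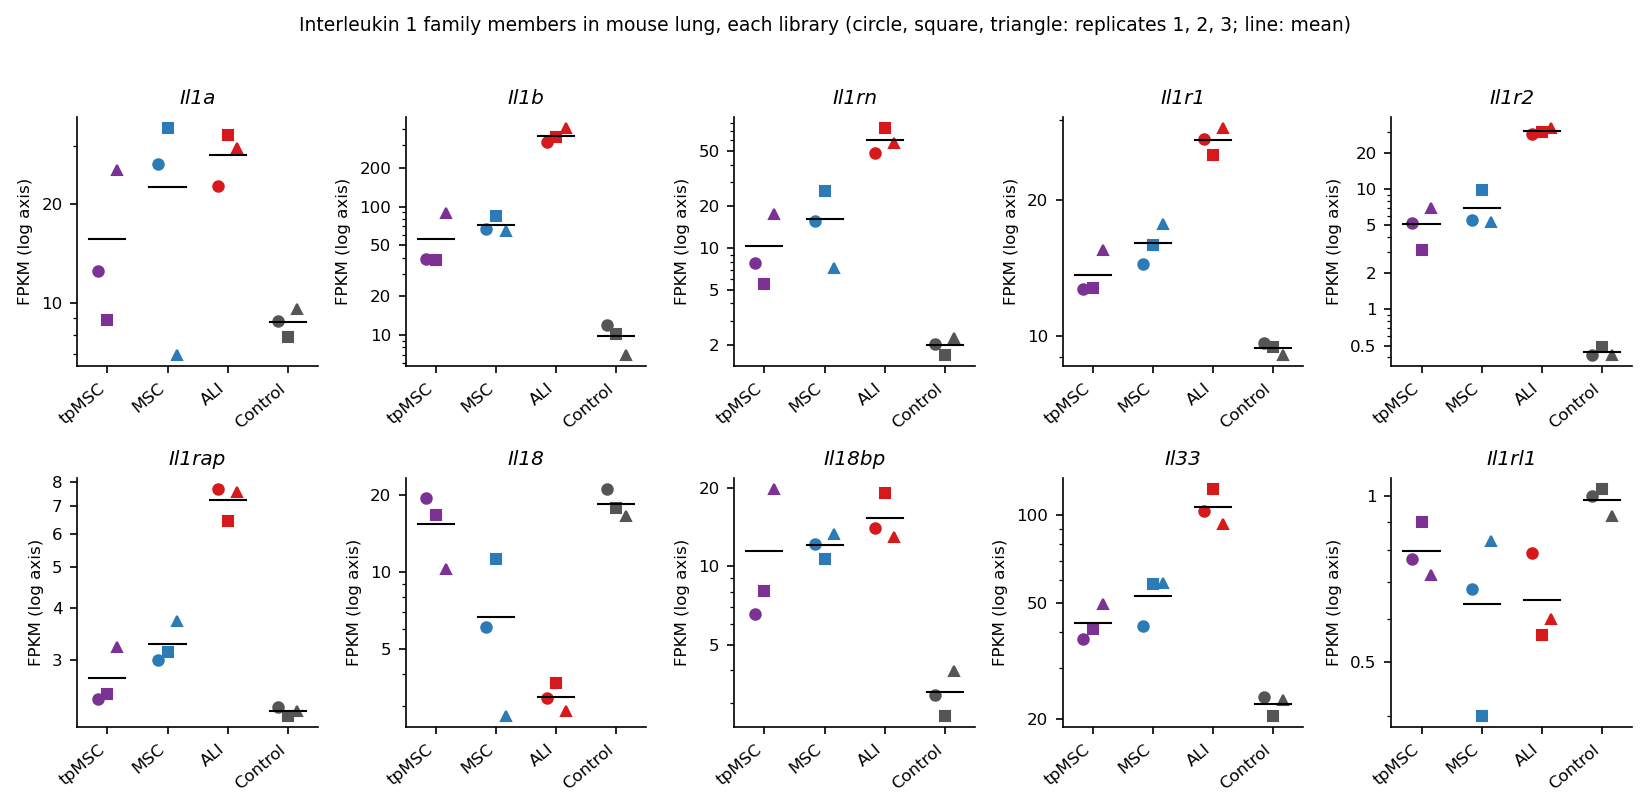
Deposited FPKM (log axis) of the 10 interleukin 1 family genes in each library of the tpMSC, MSC, ALI and Control groups, with circles, squares and triangles for replicates 1, 2 and 3 and a line at the mean. Il1b, Il1rn and Il1r2 run from ALI at the top through both treated groups to Control, while Il18 runs the other way.

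The signalling receptor chains rose by smaller folds than the decoy, with little spread. Il1r1 was at 12.7, 12.8 and 15.5 FPKM in tpMSC lungs, 14.4, 15.9 and 17.7 FPKM in MSC lungs, 27.3, 25.1 and 28.8 FPKM in ALI lungs, and 9.68, 9.49 and 9.11 FPKM in Control lungs. The treated libraries lay between ALI and Control, and overlapped each other. Il1r1 was 2.99-fold higher in ALI than in Control (log2 fold change 1.58 ± 0.10 SE, adjusted p = 1.38e-06). It was lower than in ALI in tpMSC (fold 0.497, adjusted p = 8.57e-05) and in MSC (fold 0.573, adjusted p = 0.000963), and higher than in Control in tpMSC (fold 1.49, adjusted p = 0.00408) and in MSC (fold 1.71, adjusted p = 0.00065). Il1rap, the shared accessory chain, was at 2.42, 2.49 and 3.23 FPKM in tpMSC lungs, 3.01, 3.14 and 3.71 FPKM in MSC lungs, 7.67, 6.44 and 7.54 FPKM in ALI lungs, and 2.32, 2.21 and 2.27 FPKM in Control lungs. Treated libraries were far below ALI and just above Control, without overlap with either. Il1rap was 3.32-fold higher in ALI than in Control (adjusted p = 2.43e-06) and lower than in ALI in tpMSC (fold 0.37, adjusted p = 3.85e-05) and MSC (fold 0.441, adjusted p = 0.000339). Against Control, Il1rap was called in MSC (fold 1.46, adjusted p = 0.00986) and not in tpMSC (fold 1.23, adjusted p = 0.125). Its soluble and membrane forms are not separated in these counts.

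Il18 ran opposite to the 8 members that rose. Its level was 19.4, 16.7 and 10.3 FPKM in tpMSC lungs, 6.09, 11.3 and 2.75 FPKM in MSC lungs, 3.22, 3.69 and 2.87 FPKM in ALI lungs, and 21.0, 17.7 and 16.5 FPKM in Control lungs. The tpMSC libraries were all above the ALI libraries and overlapped Control, while MSC replicate 3 was as low as ALI and the other MSC libraries lay above ALI. The fold of ALI over Control was 0.186 (log2 fold change -2.43 ± 0.40 SE, adjusted p = 0.000582). Il18 was 4.61-fold higher in tpMSC than in ALI (log2 fold change 2.21 ± 0.40, adjusted p = 0.00244). In MSC the fold over ALI was 1.97 and did not pass (adjusted p = 0.145), and without MSC replicate 2 its log2 fold change was 0.37, and without MSC replicate 3 it was 1.36 and passed (adjusted p = 0.0157, in a range of 0.00514 to 0.516 over the alternatives). Against Control, tpMSC did not differ by the test (log2 fold change -0.22 ± 0.38, adjusted p = 0.749), and MSC was lower (-1.45 ± 0.39, adjusted p = 0.0235), with values of -1.07 without MSC replicate 3 and -2.06 without MSC replicate 2. That MSC call was lost without Control replicate 1 (adjusted p = 0.0764), Control replicate 2 (0.0595) or MSC replicate 1 (0.061), and with only the MSC and Control libraries in the fit (0.0649), in a range of 0.00391 to 0.0764.

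Il18bp, which neutralises IL-18, rose in ALI, where Il18 fell. It was at 6.55, 8.02 and 19.7 FPKM in tpMSC lungs, 12.2, 10.6 and 13.3 FPKM in MSC lungs, 14.04, 19.0 and 12.96 FPKM in ALI lungs, and 3.21, 2.67 and 3.97 FPKM in Control lungs. Every library of the 3 injured groups was above Control, and tpMSC replicate 3 was the highest library of all while the other tpMSC libraries were the lowest of the injured ones. The fold over Control was 4.87 in ALI (adjusted p = 0.000379), 3.58 in tpMSC (adjusted p = 0.00615) and 3.69 in MSC (adjusted p = 0.00413). Neither treated group passed against ALI, with log2 fold changes of -0.44 ± 0.34 in tpMSC (adjusted p = 0.391) and -0.40 ± 0.34 in MSC (adjusted p = 0.527). Without tpMSC replicate 3 the tpMSC value was -1.10 and passed (adjusted p = 0.00277, in a range of 0.00272 to 0.795 over the alternatives). Its fold over Control in tpMSC was then 2.27, still called (adjusted p = 0.00552, in a range of 0.000196 to 0.0331).

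Il33 rose in ALI, and its receptor gene Il1rl1 did not pass the test. Il33 was at 37.8, 40.8 and 49.6 FPKM in tpMSC lungs, 41.9, 58.1 and 58.8 FPKM in MSC lungs, 103.7, 122.9 and 93.1 FPKM in ALI lungs, and 23.8, 20.6 and 23.4 FPKM in Control lungs. Again the treated libraries lay between ALI and Control without reaching either. Il33 was 4.92-fold higher in ALI than in Control (log2 fold change 2.30 ± 0.16 SE, adjusted p = 1.95e-06), and lower than in ALI in tpMSC (fold 0.394, adjusted p = 0.000181) and MSC (fold 0.48, adjusted p = 0.00195). It stayed above Control in tpMSC (fold 1.94, adjusted p = 0.00275) and MSC (fold 2.36, adjusted p = 0.000532). Il1rl1 was at 0.77, 0.90 and 0.72 FPKM in tpMSC lungs, 0.68, 0.40 and 0.83 FPKM in MSC lungs, 0.79, 0.56 and 0.60 FPKM in ALI lungs, and 1.00, 1.03 and 0.92 FPKM in Control lungs. Each Control library was above each library of the other groups, but no comparison passed, with a log2 fold change of -0.53 ± 0.23 in ALI against Control (adjusted p = 0.0901). That comparison passed without MSC replicate 2 (adjusted p = 0.0214), with only the ALI and Control libraries (0.027) and in limma on log2(FPKM + 1) (0.0461), in a range of 0.0214 to 0.227 over the alternatives. Against Control the values were -0.27 ± 0.23 in tpMSC (adjusted p = 0.488) and -0.60 ± 0.23 in MSC (adjusted p = 0.0943, passing in DESeq2 at 0.0467 and without MSC replicate 3 at 0.0313, in a range of 0.0308 to 0.228). Against ALI they were 0.27 ± 0.23 in tpMSC (adjusted p = 0.455) and -0.07 ± 0.23 in MSC (adjusted p = 0.896). Soluble ST2 and the membrane receptor are both counted here.

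**Figure D2:**
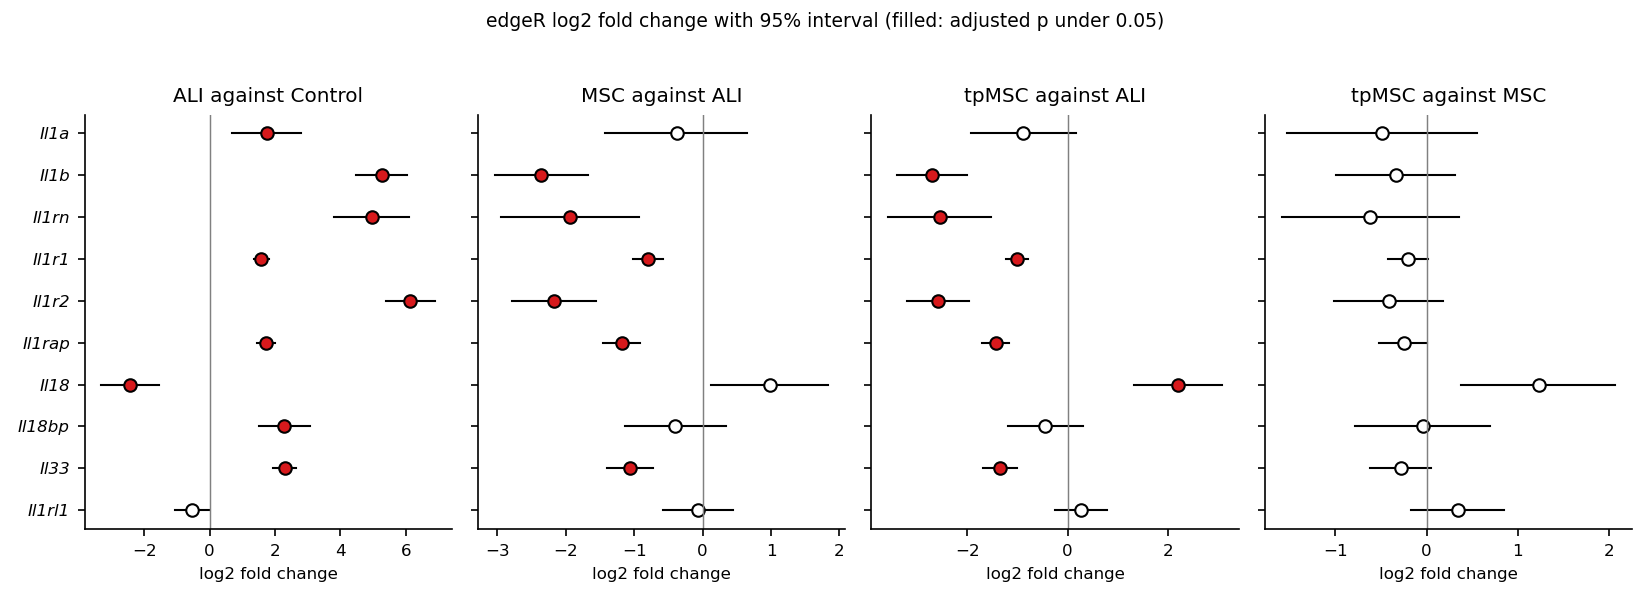
edgeR log2 fold changes of the 10 members with 95% intervals in 4 comparisons, where a filled point has an adjusted p under 0.05. In ALI against Control 9 points are filled, in MSC against ALI 6, in tpMSC against ALI 7 and in tpMSC against MSC none, where the interval of Il18 runs from 0.38 to 2.07.

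By group, 6 members were lower in MSC than in ALI and none was higher, where 10.2% of all genes were called, 5.21% down and 5.03% up. In tpMSC against ALI, 6 members were lower and 1 was higher, where 23.1% of genes were called, 11.5% down and 11.6% up. The 6 lower members were Il1b, Il1rn, Il1r1, Il1r2, Il1rap and Il33 in both comparisons, which share the ALI libraries. Libraries did not overlap with ALI for 6 members in MSC (26.9% of all genes) and for 7 in tpMSC (39.5%). Against Control, 6 members were higher and none lower in tpMSC, where 15.9% of genes were called, 9.10% up and 6.79% down. In MSC against Control, 7 were higher and 1 lower, where 18.7% were called, 10.7% up and 8.00% down. Libraries did not overlap with Control for 8 members in tpMSC (38.7% of all genes) and for 9 in MSC (37.9%).

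The direct comparison of tpMSC with MSC called none of the 10 members, where 0.0305% of all genes were called (7 of 22915), 0.0175% up and 0.0131% down. At an unadjusted p under 0.05 edgeR gave 1 member, Il18, and DESeq2 also gave 1 and called 0 after adjustment. Limma on log2(FPKM + 0.1) and on log2(FPKM + 1) gave 2 unadjusted and called 0. Il18 was 2.34-fold higher in tpMSC than in MSC (log2 fold change 1.23, 95% interval 0.38 to 2.07, adjusted p = 0.22). The log2 fold change of Il18 was 0.86 without MSC replicate 3 and 1.84 without MSC replicate 2 (adjusted p = 0.0544, in a range of 0.0544 to 0.578 over the alternatives). For the other members the log2 intervals included 0, among them Il1b (-0.99 to 0.31), Il1rn (-1.59 to 0.36), Il1r2 (-1.01 to 0.18), Il1r1 (-0.42 to 0.02) and Il33 (-0.62 to 0.05). The tpMSC and MSC libraries overlapped for every member, where 13.3% of all genes did not overlap. With MSC replicate 3 and tpMSC replicate 3 both left out, 356 genes were called, and Il1a (log2 fold change -1.47, adjusted p = 0.00953) and Il1rn (-1.61, adjusted p = 0.0199) were lower in tpMSC. Over all alternatives their adjusted p ran from 0.00953 to 0.976 and from 0.0199 to 0.948, and no other alternative called a member here.

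How far each gene lay between Control and ALI differed among the 9 members called in ALI against Control. Il1rl1 is left out here because its shift in ALI did not pass. With the Control mean at 0% and the ALI mean at 100% on log2 CPM (counts scaled to library size), Il1rap lay at 6.3% to 32.3% in tpMSC (mean 16.3%) and 23.6% to 42.5% in MSC (mean 31.3%). Il18 lay at 10.8% ± 19.2 in tpMSC and 68.6% ± 41.7 in MSC (SD, n = 3 each). Of these 9, Il18bp had the highest means, and lay at 73.5% ± 37.7 in tpMSC and 83.1% ± 7.2 in MSC. Il1b, Il1rn, Il1r1, Il1r2 and Il33 were in between, with means from 35.9% to 56.4% in tpMSC and from 48.9% to 63.4% in MSC. Il1a had the widest spread of the 9 in both treated groups, at 42.0% ± 44.9 in tpMSC and 62.6% ± 70.3 in MSC. These positions are a description, since they share the ALI and Control libraries.

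**Figure D3:**
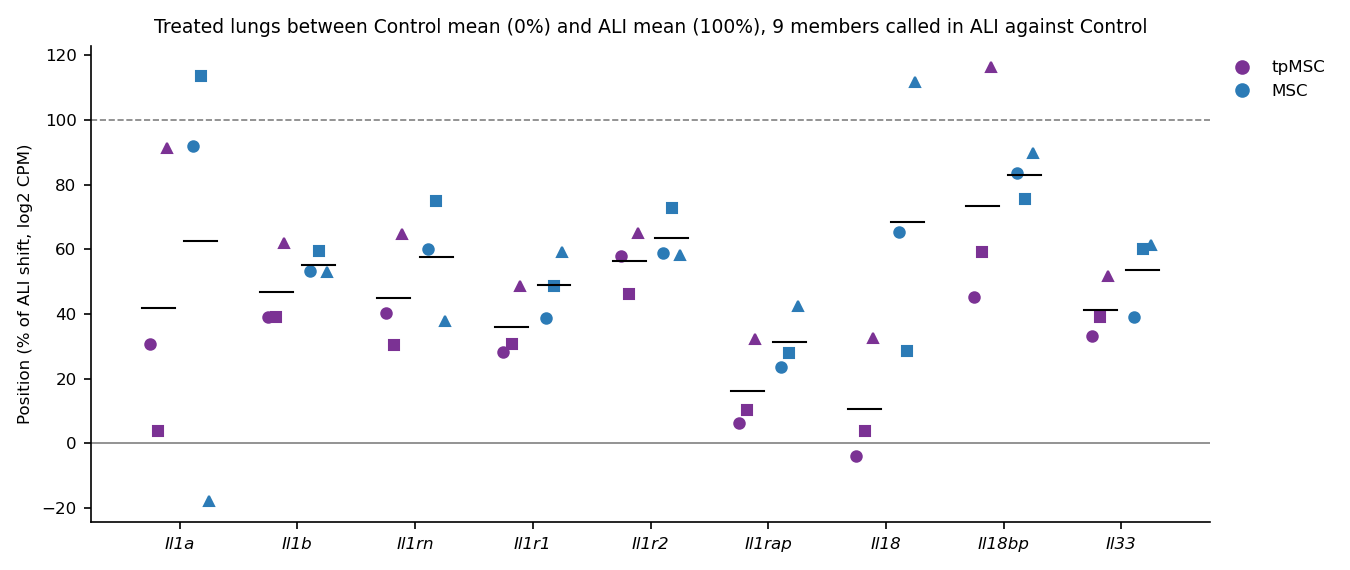
Position of each tpMSC and MSC library between the Control mean (0%) and the ALI mean (100%) on log2 CPM, for the 9 members called in ALI against Control, with circles, squares and triangles for replicates 1, 2 and 3 and lines at the means. Il1rap and, in tpMSC, Il18 lie nearest 0%, the means of Il18bp are the highest, and the MSC libraries of Il1a run from -17.7% to 113.5%.

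Ratios within a library set each agonist against its brake. Il1rn to Il1b stayed low throughout, at 0.199, 0.143 and 0.197 in tpMSC lungs, 0.232, 0.307 and 0.11 in MSC lungs, 0.153, 0.211 and 0.14 in ALI lungs, and 0.172, 0.167 and 0.323 in Control lungs, so transcripts of the antagonist were below those of the cytokine in all 12 libraries. The groups overlapped, and ALI differed from Control by -0.35 on the log2 scale (exact two-sided permutation p = 0.5). Against Il1a, by contrast, Il1rn was at 0.626, 0.619 and 0.695 in tpMSC, 0.593, 0.758 and 1.03 in MSC, 2.15, 2.26 and 1.93 in ALI, and 0.233, 0.218 and 0.235 in Control. By FPKM, ALI was the group in which every library had more antagonist than Il1a transcript, with a log2 difference from Control of 3.21. By FPKM the decoy Il1r2 exceeded the signalling receptor in the 3 ALI libraries and in no other library, with Il1r2 to Il1r1 ratios of 0.411, 0.244 and 0.449 in tpMSC, 0.385, 0.622 and 0.3 in MSC, 1.05, 1.19 and 1.11 in ALI, and 0.0434, 0.0516 and 0.0461 in Control. Which gene of a pair is higher depends on the gene lengths behind the deposited FPKM. In raw counts Il1r2 was below Il1r1 in every ALI library (3915 against 12426 in replicate 1). Il1rn counts exceeded those of Il1a in every treated library too (5971 against 3593 in MSC replicate 1).

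Il18bp to Il18 also changed side. The ratio was 0.338, 0.48 and 1.92 in tpMSC, 2, 0.946 and 4.82 in MSC, 4.36, 5.15 and 4.52 in ALI, and 0.153, 0.151 and 0.24 in Control. Binding protein transcripts exceeded those of the cytokine in 3 of 3 ALI libraries and in no Control library, with a log2 difference of 4.72 between the groups. Between tpMSC and MSC the log2 difference was -1.62 with overlapping libraries (exact two-sided permutation p = 0.2). That difference was -1.02 without MSC replicate 3 and -2.38 without tpMSC replicate 3. The log2 difference of MSC was -1.16 from ALI and 3.56 from Control, against -1.76 and 2.96 without MSC replicate 3, and that of tpMSC was -2.78 from ALI and 1.94 from Control, against -3.53 and 1.19 without tpMSC replicate 3. Il1b to Il1a was 3.55 higher on the log2 scale in ALI than in Control, at 10.7 to 14.1 in ALI and 0.728 to 1.36 in Control. Over the 30 ratio tests the smallest p that 3 against 3 libraries allow is 0.1, which gave an adjusted p = 0.158, so no ratio could pass. The differences of ALI from Control in Il1rn to Il1a, Il1b to Il1a, Il1r2 to Il1r1 and Il18bp to Il18 each reached that smallest p (exact permutation p = 0.1).

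**Figure D4:**
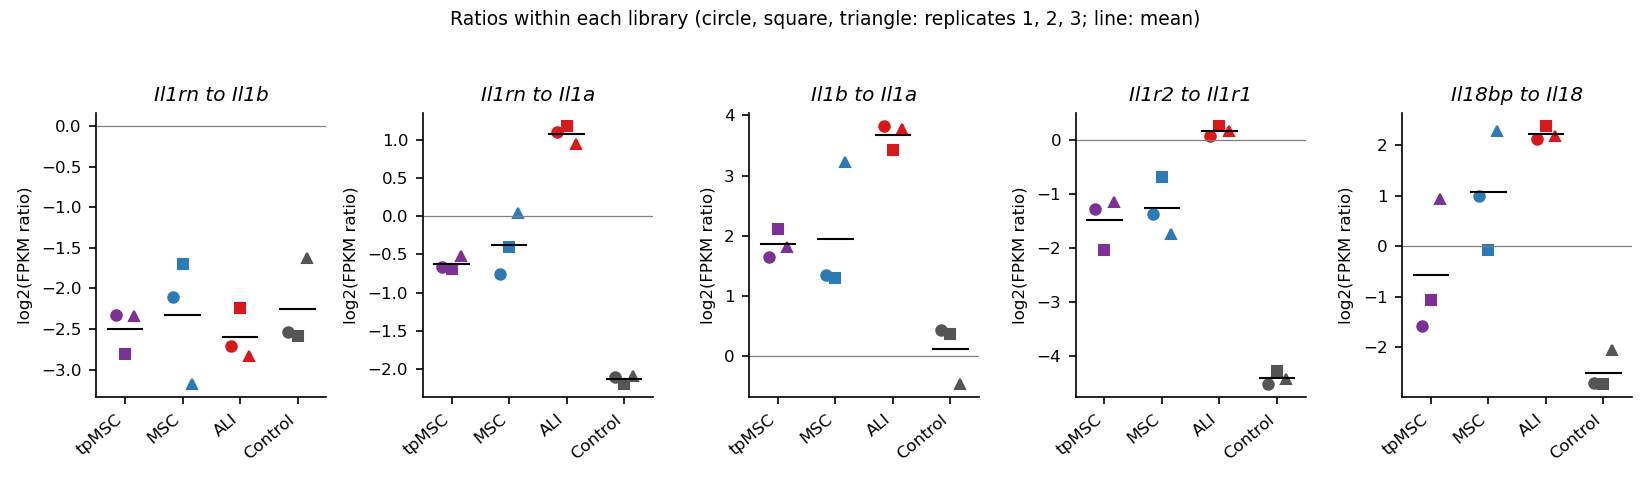
log2 ratio of the FPKM of the named genes within each library for the tpMSC, MSC, ALI and Control groups, with circles, squares and triangles for replicates 1, 2 and 3 and lines at the means. Il1rn to Il1b overlaps between all groups, while the other 4 ratios separate ALI from Control, with means of 0.16 and -4.41 for Il1r2 to Il1r1 and of 2.22 and -2.50 for Il18bp to Il18.

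The rest of the family and its pathway were read from lists. Of the other ligands, Il36g, an epithelial and myeloid agonist, was the one at high level, at 6.82, 6.77 and 14.8 FPKM in tpMSC lungs, 15.1, 15.1 and 16.2 FPKM in MSC lungs, 99.8, 134.5 and 105.2 FPKM in ALI lungs, and 2.44, 0.93 and 0.89 FPKM in Control lungs. No ALI library overlapped with another group, and the log2 fold change of Il36g was 6.38 in ALI against Control (adjusted p = 2.17e-06), -3.60 in tpMSC against ALI (adjusted p = 0.000125) and -2.92 in MSC against ALI (adjusted p = 0.00104). Il36a was at 0 in every Control library and at 1.07 FPKM or less elsewhere (ALI against Control adjusted p = 0.0114), and Il36b and Il36rn were too low to be tested. Among 4 other receptors tested in ALI against Control, Il18rap (log2 fold change 1.95, adjusted p = 1.38e-06) and Il18r1 (0.41, adjusted p = 0.00464), the chains of the IL-18 receptor, rose. Sigirr, an inhibitory receptor, fell (-0.48, adjusted p = 0.00225), and Il1rl2, the IL-36 receptor, did not pass (0.26, adjusted p = 0.424). In the chromosome 1 row the log2 fold changes in ALI were thus 6.13 for Il1r2, 1.58 for Il1r1, 0.26 for Il1rl2, -0.53 for Il1rl1, 0.41 for Il18r1 and 1.95 for Il18rap.

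Of 12 adaptors and kinases below the receptors, 7 rose and 1 fell in ALI, with a median log2 fold change of 0.38. Among all genes, 20.2% rose and 19.6% fell. Myd88, the adaptor of the family, was at 30.1 ± 8.14 FPKM in tpMSC, 29.1 ± 2.59 in MSC, 55.9 ± 4.99 in ALI and 13.9 ± 0.483 in Control (SD, n = 3 each), with a log2 fold change of 2.07 in ALI against Control (adjusted p = 3.97e-06). Map3k8, a kinase that drives ERK, rose by 1.89 on the log2 scale (adjusted p = 1.67e-06), Irak2 by 1.18 (adjusted p = 1.85e-05) and Irak4 by 0.94 (adjusted p = 6.73e-05). Tab1, a partner of TAK1, fell by 0.44 (adjusted p = 0.0217), a call lost without Control replicate 2 (adjusted p = 0.07), Control replicate 3 (0.0557) or ALI replicate 2 (0.0895), in a range of 0.00329 to 0.0895 over the alternatives, which left no lower gene on the list. Traf6 and Tollip were at 0.17 and 0.09 without passing (adjusted p = 0.0697 and 0.358). Against ALI, 8 of the 12 were lower in tpMSC and 4 in MSC, with none higher, where 11.5% and 5.21% of all genes were lower. Between tpMSC and MSC 0 differed, where 0.0305% of all genes did.

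Of 11 genes of cytokine processing and release, 9 rose and none fell in ALI, with a median log2 fold change of 0.90. Among all genes, 20.2% rose and 19.6% fell. Nlrp3, the inflammasome sensor, was at 6.11 ± 4.04 FPKM in tpMSC, 8.20 ± 2.85 in MSC, 36.1 ± 3.37 in ALI and 1.15 ± 0.0971 in Control (SD, n = 3 each). Mefv, which encodes pyrin, rose by 5.24 on the log2 scale (adjusted p = 3.57e-06), Ninj1, a membrane rupture protein, by 2.22 (adjusted p = 1.38e-06) and Casp4, the sensor of cytosolic LPS, by 2.08 (adjusted p = 5.83e-05). Casp1, which cleaves IL-1β and IL-18, rose by 0.90 (adjusted p = 0.00258), and Casp8 (0.02, adjusted p = 0.846) and Aim2 (0.26, adjusted p = 0.175) did not pass. Against ALI 6 were lower in tpMSC and 4 in MSC, where 11.5% and 5.21% of all genes were lower. With 1 library left out these ran from 5 to 9 and from 3 to 4. The calls of Casp1 in tpMSC and Casp4 in MSC were lost in several alternatives. Their adjusted p ran from 0.00146 to 0.15 and from 0.000405 to 0.101. Between tpMSC and MSC 0 differed, with 0 to 4 lower in tpMSC when 1 library was left out.

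Downstream lists were mixed, beside 20.2% of all genes that rose and 19.6% that fell in ALI against Control. Of 10 genes of the interferon gamma axis that IL-18 feeds, 7 rose in ALI, among them Ifng itself, at 0.927 ± 0.909 FPKM in tpMSC, 0.943 ± 0.239 in MSC, 0.637 ± 0.381 in ALI and 0.16 ± 0.0624 in Control (SD, n = 3 each; ALI against Control adjusted p = 0.0424). The Ifng call was lost without any 1 of the 3 Control libraries, of the 3 MSC libraries, or of ALI replicates 1 and 2. It was also lost with no filter (adjusted p = 0.0667) and in limma on log2(FPKM + 0.1) (0.067) and log2(FPKM + 1) (0.185). Its adjusted p ran from 0.0112 to 0.185 over the alternatives. Cxcl9, an interferon gamma target, differed from Control by a log2 fold change of 6.50 in ALI (adjusted p = 0.0019), and against ALI by 0.59 in tpMSC (adjusted p = 0.706) and 0.65 in MSC (adjusted p = 0.737). Its level was 2.43, 3.03 and 52.4 FPKM in tpMSC, 27.4, 12.0 and 22.5 FPKM in MSC, 8.10, 23.7 and 6.31 FPKM in ALI, and 0.17, 0.11 and 0.15 FPKM in Control. In tpMSC, replicate 3 lay above every ALI library and the other libraries below them, and without it Cxcl9 was lower in tpMSC than in ALI (log2 fold change -2.24, adjusted p = 0.012, in a range of 0.012 to 0.905 over the alternatives). Il12b, a subunit of IL-12, which acts with IL-18, rose by 3.21 on the log2 scale in ALI (adjusted p = 0.000682). Of 8 type 2 genes tested downstream of IL-33, 2 rose in ALI (Retnla and Arg1) and 1 fell (Ccl17). With 1 library left out the type 2 genes lower in ALI numbered 0 to 2, with Il4 added without MSC replicate 2, and those higher 2 to 3. Ccl17 was not called without Control replicate 2 (adjusted p = 0.0684), Control replicate 3 (0.0558), ALI replicate 1 (0.0758) or ALI replicate 3 (0.0805), in a range of 0.00377 to 0.0805 over the alternatives. Retnla, made by alternatively activated macrophages and epithelium, was at 2817, 2925 and 853.0 FPKM in tpMSC, 883.9, 2028 and 847.8 FPKM in MSC, 679.3, 344.0 and 902.2 FPKM in ALI, and 21.8, 89.0 and 88.7 FPKM in Control. Every treated library lay above every Control library, with log2 differences from ALI of 1.75 in tpMSC (adjusted p = 0.0549) and 0.92 in MSC (adjusted p = 0.379). The tpMSC difference passed in DESeq2 (adjusted p = 0.0225) and with only the 2 groups compared (0.0408). It also passed without tpMSC replicate 3, Control replicate 1 or MSC replicate 2. Its adjusted p ran from 0.0178 to 0.163 over the alternatives. Il4 and Il5, the type 2 cytokines of lymphoid cells, were below 1 FPKM on average in every group.

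Cell type markers moved with several members. Of all genes, 20.2% were higher and 19.6% lower in ALI than in Control. Against ALI, 11.6% were higher and 11.5% lower in tpMSC, and 5.03% higher and 5.21% lower in MSC. All 15 neutrophil markers were higher in ALI than in Control, and 14 were lower in tpMSC than in ALI and 13 in MSC than in ALI. Their summed level was 576.6 to 677.7 FPKM in tpMSC, 574.9 to 1064 in MSC, 4090 to 4557 in ALI and 166.8 to 255.6 in Control. Most of it came from S100a9 and S100a8. They averaged 2545 and 947.6 of the mean sum of 4310 FPKM in ALI, and 318.3 and 93.36 of 614.7 FPKM in tpMSC. The group means of this sum ran in the same order as those of all 8 members that rose in ALI. Within the treated groups the order was not kept for the sum, whose order need not be that of each marker. MSC replicate 3 had the highest sum of its group and the lowest Il1b, Il1rn and Il1r2 (5.32 FPKM). In tpMSC, replicate 3 had the lowest sum and the highest Il1b, Il1rn and Il1r2 (6.97 FPKM). MSC replicate 2 was above MSC replicate 1 in the sum and in each of these genes. Of 10 alveolar macrophage markers, 9 were lower in ALI than in Control, 9 higher in tpMSC than in ALI and 4 higher in MSC than in ALI. Their sum was 267.7, 271.7 and 199.3 FPKM in tpMSC, 146.4, 264.8 and 48.6 in MSC, 40.8, 48.4 and 45.3 in ALI, and 309.9, 302.2 and 273.6 in Control. MSC replicate 3, which had the least Il18 and Il1a of all treated libraries, was next to the ALI libraries on this sum. Car4 alone gave 29.3 of its 48.6 FPKM, and averaged 25.6 of the mean sum of 44.8 FPKM in ALI. In Control, Ear2 averaged 122.5 and Car4 74.7 of 295.2 FPKM. No marker of either list was at 0 in all libraries. Ear1 and Ear2 of the macrophage list and Stfa2l1 of the neutrophil list have close copies, so their counts are uncertain. The part of these cells in the results for Il18, Il1a, Il1b and Il1r2 was not tested.

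**Figure D5:**
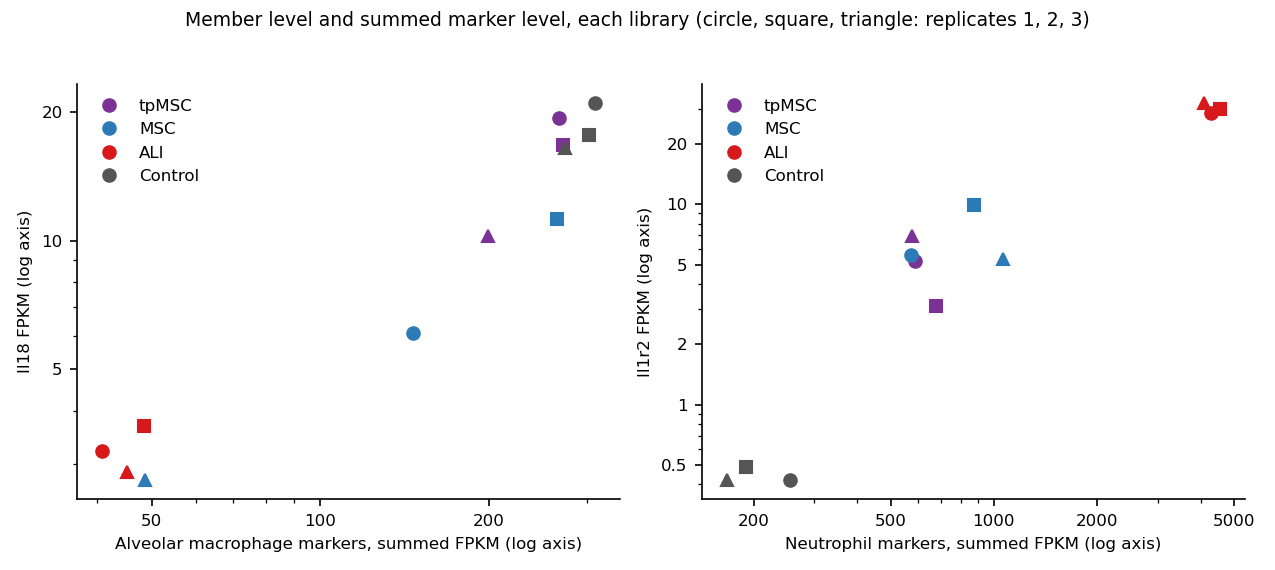
Il18 FPKM against the summed FPKM of 10 alveolar macrophage markers (left) and Il1r2 FPKM against that of 15 neutrophil markers (right), both on log axes, 1 point for each library. On the left the ALI libraries and MSC replicate 3 lie together at the low corner, and on the right the ALI libraries lie apart at 4090 FPKM or more.

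Other cell types were read from lists of the same kind. Of all genes tested, 20.2% rose and 19.6% fell in ALI against Control. In ALI against Control, 7 of 9 monocyte markers rose and none fell, 3 of 10 alveolar type 2 markers rose and 5 fell, and 1 of 8 alveolar type 1 markers rose and 7 fell. The alveolar type 2 sum was 9553 to 11980 FPKM in tpMSC, 9718 to 11240 in MSC, 6589 to 9782 in ALI and 13650 to 14710 in Control, so Il33 was highest in the group where this sum was lowest. Sftpc alone averaged 4446 of the mean sum of 8159 FPKM in ALI and 11150 of 14260 FPKM in Control. While 5 markers fell, Sftpd (844.1 against 306.5 FPKM), Sftpa1 (1444 against 906.2) and Lamp3 (292.5 against 195.5) averaged higher in ALI than in Control. All 10 endothelial markers fell, and their sum was 989.6 to 1133 FPKM in tpMSC, 792.8 to 987.6 in MSC, 643.7 to 692.7 in ALI and 1311 to 1333 in Control. Fibroblast markers divided, 3 up and 4 down of 10. For cells that carry ST2, 3 of 9 tested markers of group 2 innate lymphoid cells rose and 2 fell, 4 of 10 mast cell and basophil markers fell with none up, and 3 of 8 regulatory T cell markers rose and 1 fell. The mast cell and basophil sum was 35.3 to 39.0 FPKM in tpMSC, 26.8 to 36.3 in MSC, 19.3 to 22.4 in ALI and 49.0 to 50.8 in Control, with Il1rl1 also highest in Control. Most of that sum came from Kit and Gata2, which other lung cells also express, with 91.6% in tpMSC, 88.9% in MSC, 88.4% in ALI and 90.9% in Control. The mast cell protease genes Mcpt4, Tpsab1 and Tpsb2 averaged 0.04 to 0.257 FPKM in all groups, and none of them passed in ALI against Control. The rest of the list averaged lower in ALI than in Control without overlap. The proteases Cma1 (0.597 against 1.15 FPKM), Cpa3 (0.973 against 1.55) and Mcpt8 (0.09 against 0.403) were among them. So were Fcer1a (0.103 against 0.603) and Ms4a2 (0.163 against 0.46). The part of these cells in the levels of Il33 and Il1rl1 was not tested.

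Genes with the nearest profiles were found as those with the smallest root mean square difference of centred log2 CPM over the 12 libraries, out of 13263 genes. Nlrp3 was nearest to both Il1b (0.25) and Il1rn (0.24), on profiles whose own SD was 1.99 and 1.92. Ptafr and Cd14 followed for Il1b (0.27 and 0.33), Hcar2 and Mefv for Il1rn (0.29 and 0.31), and Ccl4, Wfdc17 and Cd14 were nearest to Il1r2 (0.32, 0.33 and 0.37). Gpr141, Pilra and Smpdl3b were nearest to Il1a (0.28, 0.34 and 0.34). Susd6, Dusp16 and Gja1 were nearest to Il1r1 (0.10, 0.11 and 0.11), and Hif1a, Smox and Lyst to Il1rap (0.11, 0.14 and 0.14). Il18 lay nearest to Ltc4s, a leukotriene synthase (0.24), Lilra5 (0.28) and Pparg, the factor that shapes alveolar macrophages (0.39). Il18bp lay nearest to the interferon-induced Oas2 (0.24), Fcgr4 (0.25) and Serpina3i (0.26), Il33 to Cebpd (0.14), Car13 (0.18) and Dtx4 (0.18), and Il1rl1 to C87198 (0.17), Mmp15 (0.18) and Rasgef1a (0.20). Among the members, Il1r1 and Il1rap were the closest pair (0.18). Il1r1 and Il33 (0.30), Il1rap and Il33 (0.32) and Il1b and Il1rn (0.44) followed. Il1r2 and Il18 were the farthest apart (3.12).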

How the data were processed

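Poly(A) RNA from 12 mouse lung samples was sequenced after marking second strands with dUTP, per the labels' protocols. Tools listed in the submitters' processing notes, with no role given, are cutadapt 1.9, HISAT2 2.0.4 and StringTie 1.3.4d, besides DESeq2 and edgeR, and the build is GRCm38. Which counter, strand setting and annotation were used is not given. Raw counts and FPKM per gene and library were deposited by the authors in 1 table, per the file headers. Its gene positions equalled GENCODE M21 for 1.88% of 35571 matched IDs, so GENCODE positions are printed, and the deposited spans of Il18bp and Il1rl1 differ from them.

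The count test was edgeR 4.0.16 in R 4.3.3 (filterByExpr, TMM, quasi-likelihood, a mean for each group, all libraries in 1 fit) with Benjamini-Hochberg adjustment over 22915 genes. SE is the log2 fold change over the root of F. Log2 CPM used a prior count of 2. FPKM ratios were tested by exact permutation. The code was tested on simulated data. The members and lists were chosen with earlier results of these data known. Named genes are the members, up to 4 per list with the smallest p in ALI against Control, and the 3 nearest profiles per member. Tab1, Traf6, Tollip, Casp1, Casp8, Aim2, Ifng, Il4, Il5, Kit, Gata2, Mcpt4, Tpsab1 and Tpsb2 were added after their values were seen. So were Cma1, Cpa3, Mcpt8 and S100a9. Il36b, Il36rn, Ear1, Ear2, Sftpa1 and Lamp3 are also named outside this rule. Chi-square per gene between libraries of a group was 20.8 to 137, so no pair agreed within sampling noise. Alternatives were RLE scaling, DESeq2 1.42.0, no filter, only the 2 groups compared, a replicate block, limma 3.58.1 on log2(FPKM + 0.1) and log2(FPKM + 1), each library left out, and, for ratios, log2 CPM and FPKM + 0.1. MSC replicate 3 and tpMSC replicate 3 were also left out together, which was chosen after seeing the data.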

Additional observations from a re-analysis of the deposited data

How the results depend on the processing

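Of 1140 values of the members under the alternatives other than the one chosen after seeing the data, 1116 kept their direction and their side of the threshold, 8 lost a call, 9 gained one and 7, none of them called, changed sign. Every call and missed call of Il1b, Il1r1, Il1r2, Il1rap and Il33 held under all alternatives run. With 1 library left out, the log2 fold change ran from -0.32 to 0.17 for Il1rl1 and from -0.82 to 0.04 for Il1a in MSC against ALI, from -0.70 to 0.24 for Il18bp in tpMSC against MSC, and from -0.40 to 0.00 for Il18 in tpMSC against Control. The log2 difference of Il1rn to Il1b ran from -0.01 to 0.28 in tpMSC against ALI, -0.05 to 0.69 in MSC against ALI, -0.59 to 0.15 in tpMSC against MSC, -0.41 to 0.07 in tpMSC against Control and -0.39 to 0.35 in MSC against Control. In tpMSC against MSC, that of Il1r2 to Il1r1 ran from -0.46 to 0.07 and that of Il1b to Il1a from -0.43 to 0.53.

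Members lower in ALI than in Control were 2 in limma on log2(FPKM + 1) and with only the 2 groups, and 1 to 2 with a library left out. Members lower in MSC than in Control were 2 in DESeq2, 0 with only the 2 groups, and 0 to 2 with a library left out, and members higher in MSC than in ALI were 0 to 1. Genes called in MSC against ALI were 1221 with only the 2 groups. In tpMSC against MSC, where 7 genes were called, RLE scaling gave 4, DESeq2 602, limma on log2(FPKM + 0.1) 13, and no filter, the replicate block and only the 2 groups 0 each. With a library left out, genes called ran from 3399 to 5800 in tpMSC against ALI, 1084 to 2930 in MSC against ALI, 0 to 386 in tpMSC against MSC, 1830 to 4247 in tpMSC against Control and 2465 to 4751 in MSC against Control. Of 1368 counts of called genes on the pathway lists, 76 moved by over 1.5 times. The cause was not tested.

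Leaving out MSC replicate 3 and tpMSC replicate 3 together was chosen after seeing the data, and the pair was picked partly because their member values lay apart from their groups, so its calls are no independent support. It gave 356 genes and 2 lower members in tpMSC against MSC, 1 higher member in MSC against ALI (Il18) and 2 lower in MSC against Control (Il18 and Il1rl1). Of 60 member values 7 gained a call, none lost one, and Il1a in MSC against ALI (0.05) and Il18 in tpMSC against Control (0.00) changed sign, as did the log2 difference of Il1rn to Il1b in MSC against Control (0.35) and of Il1b to Il1a in tpMSC against MSC (0.56).

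No pairing of libraries by replicate number was detected. Over 18 pairs the correlation of deviations ran from -0.108 to 0.104. Of 12 libraries, 4 were closest to one of their own number. A shared day or batch is not excluded by these values. The replicate block changed 0 of 60 member calls. With 3 libraries a group, the ratio tests could not pass.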
